A study of Mus musculus with 10 samples.

Results

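Bcl7a and 8 other genes for subunits of chromatin complexes were followed in mouse bone marrow cells with 4 Pax5 genotypes. The genes were listed by name. They encode the BCL7 subunits (Bcl7a, Bcl7b and Bcl7c), both ATPases (Smarca4 and Smarca2), and a core and an ARID subunit (Smarcb1 and Arid1a) of BAF, the nuclear corepressor Ncor1 and the histone methyltransferase Ezh2. All 9 were among the 25579 genes with a deposited value, and all 9 passed the minimum of 1 TPM in at least 1 library, as did 13436 genes in all. The RNA-seq data comprise 2 libraries each from ex vivo sorted bone marrow pro-B cells of C57BL/6 Pax5+/+, Pax5+/- and Pax5R31Q/- mice and from Pax5fl/fl Vav-Cre cells, called Pax5-/- here. Pax5R31Q/- cells carry 1 allele for a Pax5 protein with a changed paired domain and 1 null allele. In Pax5-/- cells both alleles are floxed for removal by a Cre recombinase that the Vav promoter drives throughout blood cell development, and the labels name these cells progenitors but name all the others pro-B cells, so genotype and labelled stage cannot be told apart. Pax5 binding was given as 2 peak lists, each from 1 ChIP-seq library of cultured pro-B cells, with 41983 peaks for Pax5+/+ and 18821 for Pax5R31Q/-. The labels list the Pax5+/+ ChIP-seq cells as Rag2-/-, and the other library as Pax5R31Q/-, so a difference between the lists cannot be assigned to Pax5 alone, and there is no replicate.

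BAF, the mammalian SWI/SNF complex, uses the energy of ATP to slide or evict nucleosomes and so opens enhancers and promoters. Each complex holds 1 ATPase, either Smarca4 (BRG1) or Smarca2 (BRM), around a shared core. Ncor1 is the platform of a corepressor complex that carries the histone deacetylase Hdac3. Ezh2 is the catalytic subunit of Polycomb repressive complex 2 (PRC2), which methylates histone H3 at lysine 27, and it is needed in pro-B cells for recombination of distal VH genes. Pax5, the transcription factor that commits cells to the B lineage, is known to recruit BAF and NCoR1 complexes to its target genes.

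The 4 genotypes differed in more than these genes. The summed level of 12 pro-B cell marker genes lay between 15671 and 20136 TPM in the 6 libraries labelled pro-B and at 8386 and 9102 TPM in the Pax5-/- libraries. Of 20 cell cycle genes 16 were called lower in Pax5-/- than in Pax5+/+ cells and 3 higher, the replication licensing genes Mcm2, Mcm3 and Mcm6. The 16 include all 11 of the list's mitosis genes (Mki67, Top2a, Ccnb1, Aurkb and others) and 5 of its 9 S phase genes. The mitosis genes' sum in Pax5-/- cells was 462 and 488 TPM, against 1478 to 2630 TPM in the other 6 libraries. The sum of 8 myeloid marker genes reached 2068 TPM in 1 Pax5-/- library and was 319 TPM in the other. It was 398 and 617 TPM in Pax5+/+, 662 and 1527 TPM in Pax5+/-, and 946 and 995 TPM in Pax5R31Q/- cells. In Pax5R31Q/- against Pax5+/+ cells 0 of these 8 genes were called. The sum of 8 T and NK cell markers was 37.5 and 67.8 TPM in Pax5-/- and 14.3 to 26.4 TPM in the other libraries, with Nkg7 called higher in Pax5-/- than in Pax5+/+ cells (56.2 and 24.7 against 6.45 and 6.34 TPM) and Klrb1c called lower (6.17 and 6.35 against 13.8 and 15.7 TPM). The sum of 5 erythroid markers was 5.08 and 14.2 TPM in Pax5-/- and 16.0 to 30.9 TPM elsewhere. The T cell genes Cd3e, Cd3d and Cd3g stayed under 1 TPM, and the globin gene Hbb-bs was at 0 in all 8 libraries. Pax5 transcripts were at 1242 and 1409 TPM in Pax5-/- cells and at 418 and 444 TPM in Pax5+/+ cells, a value for the whole gene that does not show which exons were read and so does not check the deletion. Whole reads, within 0.001 reads, could be recovered from the TPM values of all 18206 genes above 0 in at least 2 libraries, of 25579 in the files, giving 21625407 to 34488454 reads on genes per library and, for the 9 genes, 1036 to 163019 reads per gene and library.

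Bcl7a fell strongly in Pax5R31Q/- and in Pax5-/- cells and was the only 1 of the 9 genes that passed the test in Pax5R31Q/- cells. Its product is a BAF subunit, and the gene was first found at a translocation breakpoint in a Burkitt lymphoma cell line. Bcl7a was at 627 and 745 TPM in Pax5+/+, at 546 and 469 TPM in Pax5+/-, at 152 and 135 TPM in Pax5R31Q/- and at 99.9 and 128 TPM in Pax5-/- cells. Both low genotypes lay far below the lowest Pax5+/- library, and they did not overlap each other. The log2 difference of log2(TPM + 1) from Pax5+/+ was -2.24 ± 0.16 (SE, 2 libraries against 2) in Pax5R31Q/- cells, with an adjusted p = 0.000895 from limma, and the mean TPM was 21.0% of that in Pax5+/+ cells. In Pax5-/- cells the log2 difference was -2.58 ± 0.16, with an adjusted p = 3.48e-05 from limma. The smallest two-sided p that an exact permutation of 2 and 2 libraries can give is 0.333, and these p-values therefore rest on a spread pooled over genes by limma. Nothing in the labels states that the libraries of a genotype came from separate mice, and the p-values measure only the spread between these libraries. Pre-B cell markers moved with Bcl7a in part. Of 4 such genes, 2 were called lower in Pax5R31Q/- than in Pax5+/+ cells, Cd22 with a log2 difference of -0.89 (adjusted p = 0.0238 from limma) and Ms4a1 with -2.49 (adjusted p = 0.0261), and 0 higher. Of all genes tested 2.55% were called lower and 1.62% higher. Cd2 was at 1.38 and 0.899 TPM in Pax5R31Q/- against 4.77 and 2.61 TPM in Pax5+/+ cells (adjusted p = 0.0755 from limma). The study names Cd2 as a gene that Pax5 activates directly, so its level need not follow the number of pre-B cells. Il2ra was at 41.9 and 21.1 TPM in Pax5R31Q/- against 13.0 and 6.55 TPM in Pax5+/+ cells (adjusted p = 0.0964). The sum of the 4 was 85.7 and 94.2 TPM in Pax5+/+, 77.0 and 88.5 TPM in Pax5+/-, 52.7 and 79.2 TPM in Pax5R31Q/- and 46.7 and 71.8 TPM in Pax5-/- cells. In Pax5-/- cells Cd2, Cd22 and Ms4a1 were called lower and Il2ra higher. Their part in the Bcl7a values was not tested.

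**Figure D1:**
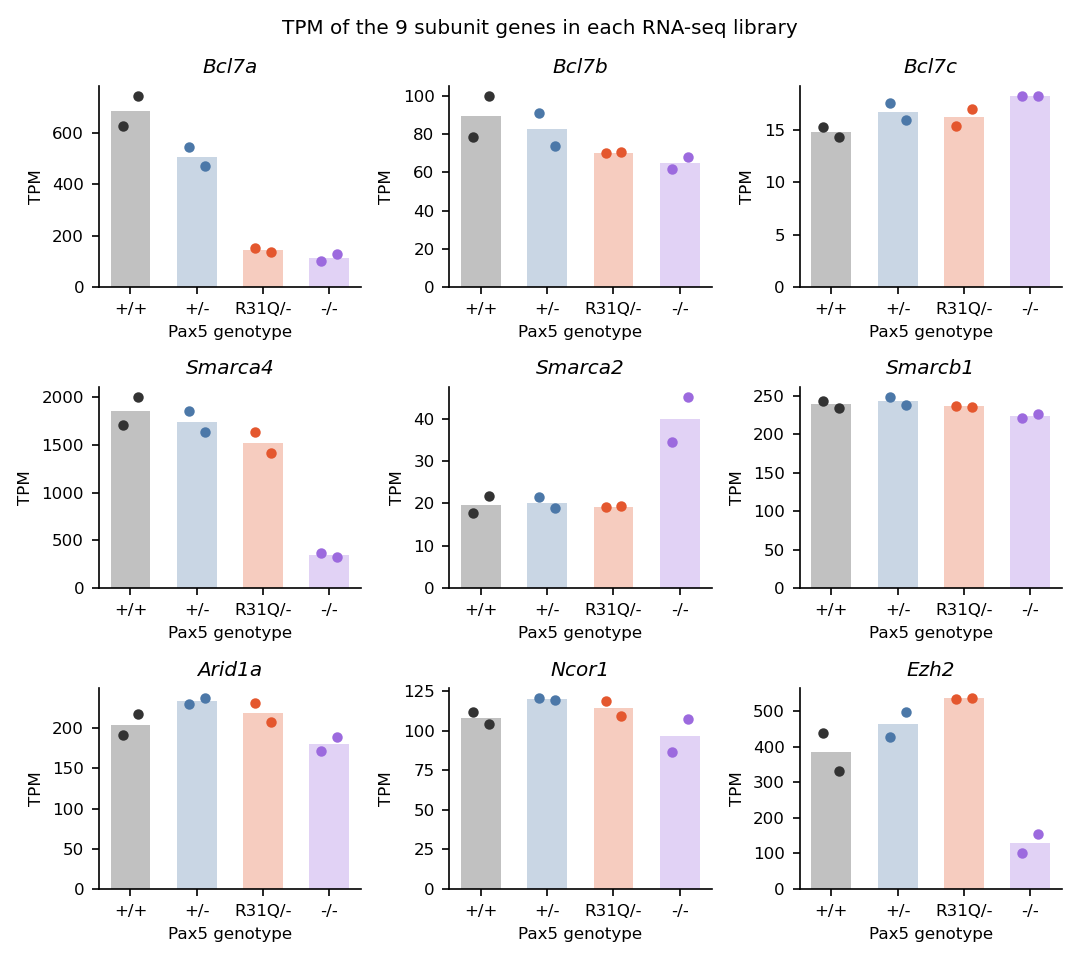
TPM (vertical axes, linear from 0) of the 9 genes by Pax5 genotype. Each point is 1 library and each bar the mean of 2. Bcl7a is low in both R31Q/- and -/- libraries, at 99.9 to 152 TPM, whereas Smarca4 and Ezh2 are low in the -/- libraries and Smarca2 is high there.

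Bcl7a was not called in cells that lack 1 Pax5 allele. Pax5+/- cells had a mean of 508 ± 54.4 TPM of Bcl7a (SD, n = 2) against 686 ± 83.4 TPM in Pax5+/+ cells, and the libraries of both genotypes did not overlap. The log2 difference of -0.43 (95% interval -0.81 to -0.06) had an adjusted p = 0.704 from limma and was not called. Pax5+/- cells also have a single Pax5 allele that is not null, and against them the Pax5R31Q/- level was lower by a log2 difference of -1.81 (95% interval -2.19 to -1.43, adjusted p = 0.00699 from limma). The call was lost when any 1 of the 4 libraries compared was left out, with log2 differences of -1.92 to -1.70 and adjusted p = 0.0562 to 0.137 in those fits. Bcl7a in Pax5R31Q/- cells was 144 ± 11.8 TPM and in Pax5-/- cells 114 ± 20.2 TPM. Their log2 difference was 0.34 (95% interval -0.04 to 0.72, adjusted p = 0.136 from limma), and over the fits without 1 library it ranged from 0.16 to 0.52, called without the second Pax5-/- library (adjusted p = 0.041).

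The paralogs Bcl7b and Bcl7c were not called in any of the 5 comparisons between genotypes. Bcl7b, one of the genes deleted in Williams syndrome, was at 78.3 and 100.2 TPM in Pax5+/+, at 91.3 and 73.6 TPM in Pax5+/-, at 70.1 and 70.6 TPM in Pax5R31Q/- and at 62.0 and 68.1 TPM in Pax5-/- cells. Its log2 difference from Pax5+/+ was -0.33 (adjusted p = 0.309 from limma) in Pax5R31Q/- and -0.44 (95% interval -0.81 to -0.07, adjusted p = 0.063) in Pax5-/- cells, where it ranged from -0.62 to -0.27 over the fits without 1 library and was called without the first Pax5+/+ library (adjusted p = 0.0353). Bcl7c, which overlaps the microRNA gene Mir762 on the other strand, lay between 14.3 and 18.3 TPM in all 8 libraries. Its log2 difference was 0.12 (adjusted p = 0.634 from limma) in Pax5R31Q/- and 0.29 (adjusted p = 0.135, or 0.048 with limma-voom on the recovered reads) in Pax5-/- cells. TPM counts reads per length of a gene, so the levels of the 3 paralogs can be added within a library. Bcl7a made up 86.7% and 87.0% of their sum in Pax5+/+, 83.4% and 84.0% in Pax5+/-, 60.7% and 64.0% in Pax5R31Q/- and 55.4% and 59.8% in Pax5-/- cells. The sum itself was 720 and 859 TPM in Pax5+/+ and 223 and 238 TPM in Pax5R31Q/- cells, and Bcl7a stayed the most abundant of the 3 in every library.

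Bcl7a lies on chromosome 5 from 123344448 to 123374083, plus strand (GRCm38), and had 6 Pax5+/+ peaks in or within 10 kb of it. Of these, 3 were met by a Pax5R31Q/- peak (common) and 3 were not (unique). The common peak at the transcription start site (TSS) was 1167 bp wide in the Pax5+/+ list and 1810 bp in the Pax5R31Q/- list, the widest Pax5+/+ peak at any of the 9 genes. A second common peak lay in an intron, 1958 bp downstream of the TSS, and another lay beyond the gene, 37716 bp from the TSS. The unique peaks were 290, 238 and 562 bp wide, with their midpoints 4352 bp upstream and 33328 and 35431 bp downstream of the TSS. The upstream one falls within Gm15860, a gene on the other strand that overlaps the Bcl7a start. The downstream ones and the common peak beyond the gene lie between Bcl7a and its neighbour Mlxip, which was at 110 and 116 TPM in Pax5+/+ and at 86.2 and 57.1 TPM in Pax5R31Q/- cells, a log2 difference of -0.68 (adjusted p = 0.096 from limma). In Pax5-/- cells Mlxip was at 59.2 and 64.6 TPM and was called lower, with a log2 difference of -0.85 (adjusted p = 0.00926 from limma). The Bcl7a TSS was thus within a listed peak in both genotypes. These lists carry no peak heights, so a weaker signal at a common peak would not be seen.

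The sequences under 3 of these peaks are given as 300 bases centred on the peak, as examples that hold the letters searched, chosen after the matches were known, and 2 of the 3 are unique. GCGTGAC is part of the DNA site that the paired domain of Pax5 binds, and GTGAC is its shorter core. Either was searched on both strands, and GTGAC also lies within GCGTGAC. In windows of this length around all Pax5+/+ peaks, 3.78% held GCGTGAC and 29.8% held GTGAC. Among common peaks 7.29% and 51.2% held them, and among unique peaks 1.68% and 17.1%. The looser GCNTGAC, which includes GCGTGAC, was searched over whole peaks and ran the other way, in 25.8% of common and 65.9% of unique peaks. The 24-base sequence found most often in a sample of unique peaks lay in 51.2% of all unique Pax5+/+ peaks and 0.273% of common ones, but in 0 of the 36 peaks within 10 kb of the 9 genes. The first window below is the unique upstream peak, with 3 copies of GTGAC in capitals on one strand or the other, the second is the common intronic peak with 2 copies in capitals, and the third is the unique peak 33328 bp downstream, with its 1 copy of GCGTGAC in capitals. Of the windows not printed, the unique peak 35431 bp downstream held 0 copies of GTGAC and the common peak 37716 bp downstream held 1. A match is only a match of letters and was not tested as a binding site.
Bcl7a, chr5:123339946-123340245, plus strand: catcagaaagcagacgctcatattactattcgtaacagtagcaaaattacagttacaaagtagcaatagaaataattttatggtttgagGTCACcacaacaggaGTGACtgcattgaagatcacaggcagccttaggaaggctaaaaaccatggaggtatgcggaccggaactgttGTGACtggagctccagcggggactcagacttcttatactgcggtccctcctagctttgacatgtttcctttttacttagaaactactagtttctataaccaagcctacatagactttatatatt
Bcl7a, chr5:123346256-123346555, plus strand: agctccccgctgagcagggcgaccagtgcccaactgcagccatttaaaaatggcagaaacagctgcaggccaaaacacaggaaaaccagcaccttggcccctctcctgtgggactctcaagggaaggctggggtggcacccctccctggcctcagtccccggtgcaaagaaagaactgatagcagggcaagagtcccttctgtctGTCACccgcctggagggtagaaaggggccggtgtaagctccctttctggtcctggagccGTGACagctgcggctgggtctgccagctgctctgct
Bcl7a, chr5:123377626-123377925, plus strand: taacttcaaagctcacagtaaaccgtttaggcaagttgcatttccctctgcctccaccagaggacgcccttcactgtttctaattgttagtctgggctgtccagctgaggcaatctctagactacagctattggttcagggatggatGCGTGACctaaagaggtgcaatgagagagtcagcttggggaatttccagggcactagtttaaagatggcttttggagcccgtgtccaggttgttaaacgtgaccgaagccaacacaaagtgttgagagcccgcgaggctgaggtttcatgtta

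Smarca4 was called in Pax5-/- cells but not in Pax5R31Q/- cells. It encodes the main BAF ATPase in lymphoid cells and had the highest TPM of the 9 genes in every library. Its level was 1707 and 2005 TPM in Pax5+/+, 1854 and 1630 TPM in Pax5+/-, 1634 and 1413 TPM in Pax5R31Q/- and 365 and 330 TPM in Pax5-/- cells. The Pax5-/- libraries stood apart from all 6 others. The log2 difference from Pax5+/+ was -2.41 ± 0.14 (SE) in Pax5-/- cells, with an adjusted p = 2.72e-05 from limma and 18.7% of the mean TPM. In Pax5R31Q/- cells it was -0.28 (95% interval -0.62 to 0.05, adjusted p = 0.331), and in Pax5+/- cells -0.09 (adjusted p = 1.0). Pax5R31Q/- and Pax5-/- cells were also compared directly. The Pax5R31Q/- level was higher by a log2 difference of 2.13 (95% interval 1.79 to 2.46, adjusted p = 7.35e-05 from limma). RNA was taken from whole sorted populations, in which fewer cells that express a gene and less RNA per cell cannot be told apart.

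Smarca2 moved the other way. The alternative ATPase was at 17.7 and 21.7 TPM in Pax5+/+, at 21.5 and 18.8 TPM in Pax5+/-, at 19.1 and 19.3 TPM in Pax5R31Q/- and at 34.5 and 45.2 TPM in Pax5-/- cells. The first 3 genotypes overlapped, and both Pax5-/- libraries were above them. The log2 difference from Pax5+/+ was 0.98 ± 0.17 (SE) in Pax5-/- cells, with an adjusted p = 0.00431 from limma, and -0.03 (95% interval -0.44 to 0.38, adjusted p = 0.949) in Pax5R31Q/- cells. Against Pax5-/-, the Pax5R31Q/- level was lower by a log2 difference of -1.0 (adjusted p = 0.00443 from limma). Smarca2 overlaps 4931403E22Rik on the other strand, with shared exon sequence, and how reads were assigned to strands is not given in the sources used here. Per length, the ratio of Smarca4 to Smarca2 was 96.6 and 92.3 in Pax5+/+, 86.2 and 86.6 in Pax5+/-, 85.6 and 73.2 in Pax5R31Q/- and 10.6 and 7.29 in Pax5-/- cells. Smarca4 thus remained the more abundant ATPase transcript in every library. The sum of both was 375 and 400 TPM in Pax5-/- and 1433 to 2027 TPM in the other 6 libraries.

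**Figure D2:**
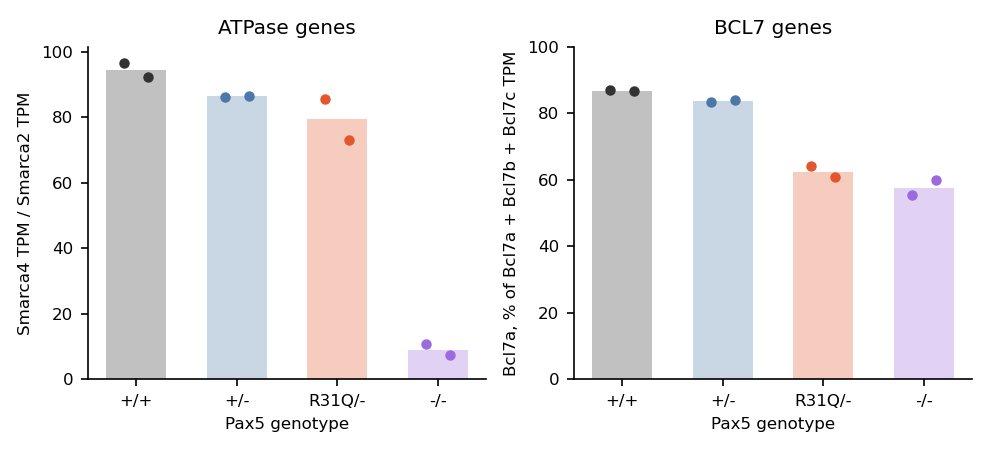
Left, the ratio of Smarca4 to Smarca2 TPM in each library. Right, the share of Bcl7a in the summed TPM of Bcl7a, Bcl7b and Bcl7c. Points are libraries, bars means of 2, by Pax5 genotype. The ATPase ratio falls to 10.6 and 7.29 in -/- libraries, and the Bcl7a share falls to between 55.4% and 64.0% in both R31Q/- and -/- libraries.

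Smarca4 spans chromosome 9 from 21616169 to 21704230, plus strand. Within 10 kb it had 6 Pax5+/+ peaks, with 3 common and 3 unique. The common peaks lay at the TSS (1108 bp wide), 6052 bp upstream and in an intron 9361 bp downstream. The unique peaks were all intronic, 11410, 14622 and 36220 bp downstream of the TSS, and 289, 274 and 445 bp wide. With 50 kb on either side, 4 of 11 Pax5+/+ peaks were unique around Smarca4 and 8 of 13 around Bcl7a. Of the whole Pax5+/+ list 62.5% were unique. Repeats marked in the genome covered 87.6% of the unique peak at 14622 bp. The neighbouring common and unique intronic peaks are shown for contrast, the common one at 9361 bp with 2 copies of GTGAC in capitals and the unique one at 11410 bp with none.
Smarca4, chr9:21625380-21625679, plus strand: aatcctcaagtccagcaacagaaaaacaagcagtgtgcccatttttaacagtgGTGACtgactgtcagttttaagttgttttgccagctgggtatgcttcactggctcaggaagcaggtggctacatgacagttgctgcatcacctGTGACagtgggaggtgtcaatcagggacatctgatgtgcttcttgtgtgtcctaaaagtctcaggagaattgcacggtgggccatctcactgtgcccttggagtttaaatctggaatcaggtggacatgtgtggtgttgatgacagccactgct
Smarca4, chr9:21627429-21627728, plus strand: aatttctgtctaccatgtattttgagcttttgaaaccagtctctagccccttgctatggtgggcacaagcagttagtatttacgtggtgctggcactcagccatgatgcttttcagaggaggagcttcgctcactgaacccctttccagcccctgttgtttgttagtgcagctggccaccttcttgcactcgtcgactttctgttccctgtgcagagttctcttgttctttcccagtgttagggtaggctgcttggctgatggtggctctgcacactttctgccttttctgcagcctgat

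Smarca2 spans chromosome 19 from 26605160 to 26778321, plus strand, and has 3 annotated start sites. Of its 7 Pax5+/+ peaks, 6 were common, among them 3 within 1 kb of a start site, and 1 intronic peak, 395 bp wide and 65191 bp downstream of the nearest start site, was unique. The unique peak and the common intronic peak 3429 bp downstream each held GCGTGAC, in capitals below, so at this gene the same 7 letters occurred in a peak of both lists and in a peak of the Pax5+/+ list alone. Only GCGTGAC is marked in these windows. The shorter GTGAC occurs 2 times in the common and 4 times in the unique window, counting the copy within GCGTGAC. Over whole peaks, a copy was present in 4 of the 36 Pax5+/+ peaks at the 9 genes and in 4.83% of the Pax5+/+ list, and 2 of these 4 were unique.
Smarca2, chr19:26608439-26608738, plus strand: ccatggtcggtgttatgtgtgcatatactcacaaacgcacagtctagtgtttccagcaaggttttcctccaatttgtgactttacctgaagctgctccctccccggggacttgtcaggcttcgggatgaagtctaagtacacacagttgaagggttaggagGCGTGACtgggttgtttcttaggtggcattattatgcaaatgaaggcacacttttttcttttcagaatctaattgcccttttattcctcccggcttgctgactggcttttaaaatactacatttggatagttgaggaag
Smarca2, chr19:26670201-26670500, plus strand: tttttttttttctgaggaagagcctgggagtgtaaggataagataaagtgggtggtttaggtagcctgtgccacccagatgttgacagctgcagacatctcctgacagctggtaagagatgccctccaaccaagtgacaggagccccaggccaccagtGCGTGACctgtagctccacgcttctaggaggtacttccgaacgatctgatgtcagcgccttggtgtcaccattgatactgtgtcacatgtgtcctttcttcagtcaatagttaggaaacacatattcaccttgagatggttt

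**Figure D3:**
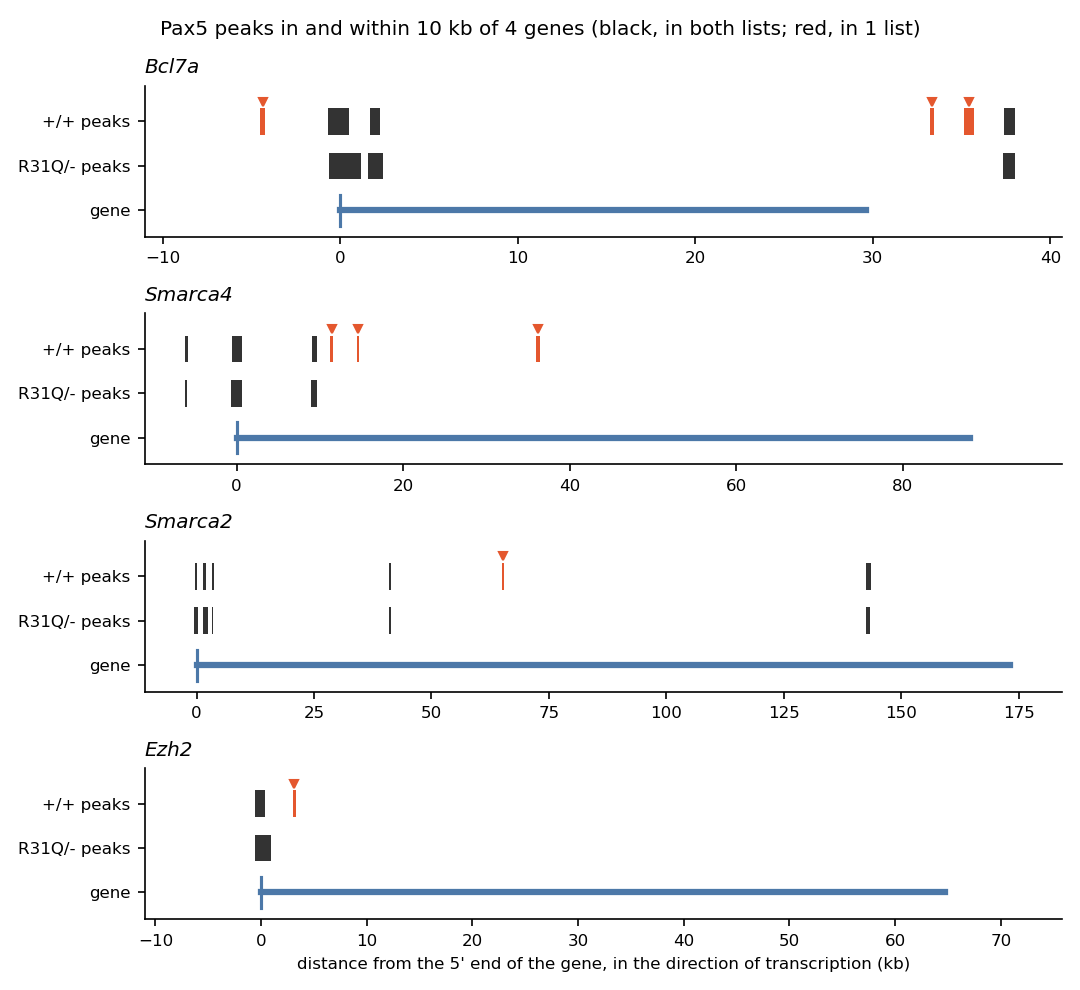
Pax5 peaks in and within 10 kb of Bcl7a, Smarca4, Smarca2 and Ezh2, by distance in kb from the 5' end of the gene in the direction of transcription. The upper row of each panel holds Pax5+/+ peaks, the lower row Pax5R31Q/- peaks, black for peaks in both lists and red with a triangle for peaks in 1 list, and the blue line is the gene. Each gene has a black peak at its 5' end, and the 8 red peaks (3, 3, 1 and 1) lie away from it.

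The BAF subunits Smarcb1 and Arid1a were not called in any of the 5 comparisons. Smarcb1 (SNF5), a core subunit, lay between 220 and 249 TPM in all 8 libraries, the narrowest range relative to its level of the 9 genes. Its log2 difference from Pax5+/+ was -0.01 (95% interval -0.23 to 0.21, adjusted p = 0.949 from limma) in Pax5R31Q/- and -0.10 (95% interval -0.31 to 0.12, adjusted p = 0.459) in Pax5-/- cells, and the latter went to 0 when libraries were scaled by quantiles. Bcl7a exceeded Smarcb1 by 2.58 and 3.18 times in Pax5+/+ cells and was at 0.644 and 0.575 of it in Pax5R31Q/- and at 0.453 and 0.568 in Pax5-/- cells. Arid1a (BAF250a), the large subunit of canonical BAF, was at 191 and 218 TPM in Pax5+/+, at 230 and 207 TPM in Pax5R31Q/- and at 171 and 189 TPM in Pax5-/- cells. Its log2 difference was 0.10 (adjusted p = 0.661 from limma) in Pax5R31Q/- and -0.18 (adjusted p = 0.269) in Pax5-/- cells. Both Smarcb1 peaks and all 6 Arid1a peaks of the Pax5+/+ list were common. Arid1a also had a Pax5R31Q/- peak of 641 bp, 1015 bp downstream of a start site, that met no Pax5+/+ peak, and Bcl7c had one of 592 bp, 8515 bp upstream.

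Ncor1, the corepressor, was not called in any of the 5 comparisons. It was at 111 and 104 TPM in Pax5+/+, at 121 and 119 TPM in Pax5+/-, at 119 and 109 TPM in Pax5R31Q/- and at 86.1 and 107 TPM in Pax5-/- cells. The log2 difference from Pax5+/+ was 0.08 (95% interval -0.22 to 0.38, adjusted p = 0.76 from limma) in Pax5R31Q/- and -0.16 (95% interval -0.46 to 0.14, adjusted p = 0.35) in Pax5-/- cells. Over the fits without 1 library the latter ranged from -0.32 to -0.01, and it was called in 1 of them, without the second Pax5-/- library (adjusted p = 0.0461). Ncor1 shares exon sequence with Ttc19 on the other strand. Its 2 Pax5+/+ peaks, at the TSS and 1149 bp upstream, were common. Hdac3, the deacetylase of the same complex, was at 110 to 127 TPM in all 8 libraries, with log2 differences of 0.11 (adjusted p = 0.6 from limma) in Pax5R31Q/- and -0.02 (adjusted p = 0.881) in Pax5-/- cells.

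Ezh2 was called lower in Pax5-/- cells. It was at 439 and 332 TPM in Pax5+/+, at 428 and 496 TPM in Pax5+/-, at 533 and 538 TPM in Pax5R31Q/- and at 101 and 156 TPM in Pax5-/- cells. Both Pax5-/- libraries were below all others, and both Pax5R31Q/- libraries above. The log2 difference from Pax5+/+ was -1.60 ± 0.22 (SE) in Pax5-/- cells, with an adjusted p = 0.00122 from limma, and 0.49 (95% interval -0.02 to 1.0, adjusted p = 0.285) in Pax5R31Q/- cells. Directly compared, Pax5R31Q/- exceeded Pax5-/- cells by a log2 difference of 2.09 (95% interval 1.58 to 2.60, adjusted p = 0.000479 from limma). The paralog Ezh1 lay between 27.8 and 34.7 TPM in every library, so Ezh2 made up 77.9% and 81.8% of the Ezh1 and Ezh2 sum in Pax5-/- and 90.6% to 95.1% in the other 6 libraries. The mitosis genes were also lower in the Pax5-/- libraries than in all others. Mki67 was at 53.6 and 63.6 TPM in Pax5-/-, at 311 and 185 TPM in Pax5+/+ and at 394 and 353 TPM in Pax5R31Q/- cells. Their part in the Ezh2 and Smarca4 values of Pax5-/- cells was not tested. Ezh2 lies on chromosome 6 from 47530274 to 47595030, minus strand, and had a common peak of 914 bp at its TSS and a unique intronic peak of 288 bp, 3128 bp downstream.

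**Figure D4:**
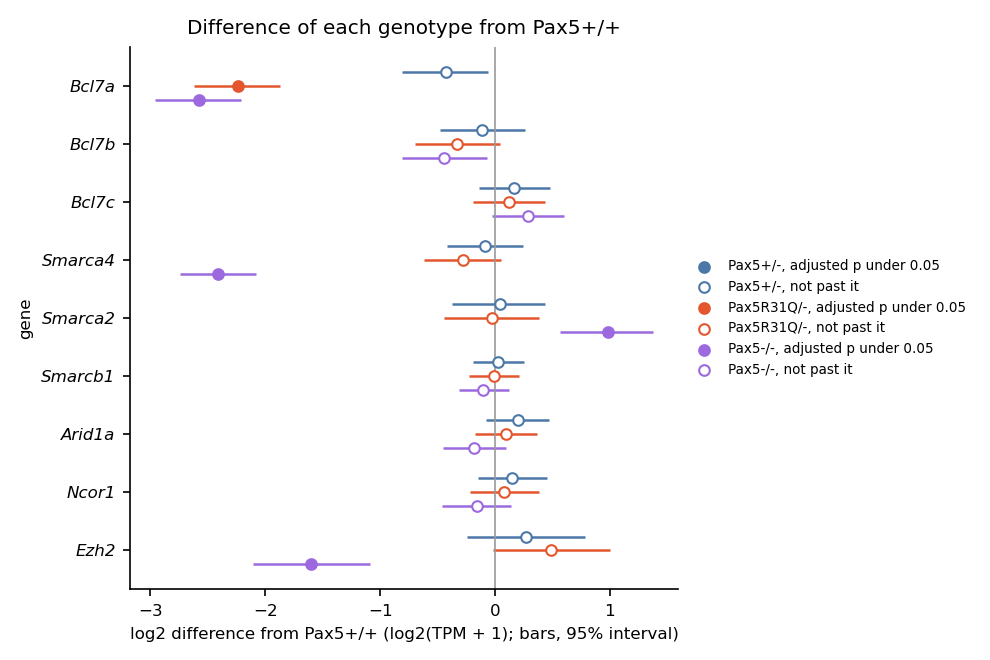
Log2 difference of each genotype from Pax5+/+ (horizontal axis, log2(TPM + 1) scale) for the 9 genes, with 95% intervals. Filled points have an adjusted p under 0.05 in limma. Bcl7a is filled for R31Q/- at -2.24 and -/- at -2.58, while Smarca4, Smarca2 and Ezh2 are filled for -/- at -2.41, 0.98 and -1.60.

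Counted over the genotypes, the 9 genes stand as follows beside all 13436 genes tested. In Pax5R31Q/- against Pax5+/+ cells 1 of 9 was called lower (Bcl7a) and none higher, where 2.55% of all genes were called lower and 1.62% higher. In Pax5-/- against Pax5+/+ cells 3 were called lower (Bcl7a, Smarca4 and Ezh2) and 1 higher (Smarca2), where 19.7% and 16.2% of all genes were. In Pax5+/- against Pax5+/+ cells limma called 0 of 9. Here 1 gene, Bcl7a, had an unadjusted p under 0.05, limma-voom on the recovered reads also called 0, and 0.0223% of all genes were called lower and 0.0% higher. Against Pax5+/-, the Pax5R31Q/- libraries had 1 of 9 lower, where 0.35% of all genes were lower and 0.268% higher. Against Pax5-/-, they had 1 lower and 2 higher, where 14.7% and 19.9% were, and 5 of 9 were called without the second Pax5-/- library. The median log2 difference of the 9 genes was -0.01 in Pax5R31Q/- and -0.18 in Pax5-/- cells, beside medians over all genes of 0.04 and -0.11. The shift of all genes in Pax5-/- cells was -0.03 after median-ratio scaling and -0.01 after quantile scaling, and the 4 calls in Pax5-/- cells held under both.

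The wider set of 51 subunit genes of BAF, the NCoR and SMRT complex, the Groucho family and PRC2 was listed by complex. It includes the 9, and 47 passed the TPM minimum. In Pax5R31Q/- against Pax5+/+ cells 2 of 47 were called, both lower, Bcl7a and Aes, where 2.55% of all genes tested were called lower and 1.62% higher. Aes (Tle5), a short Groucho family member without the usual corepressor repeats, was at 590 and 746 TPM in Pax5+/+, at 496 and 450 TPM in Pax5+/-, at 342 and 325 TPM in Pax5R31Q/- and at 478 and 492 TPM in Pax5-/- cells. Its log2 difference from Pax5+/+ was -0.99 (adjusted p = 0.00838 from limma) in Pax5R31Q/- and -0.45 (adjusted p = 0.0348) in Pax5-/- cells, and in Pax5R31Q/- against Pax5-/- cells it was -0.54 (adjusted p = 0.0192). The call in Pax5R31Q/- cells was lost without either Pax5R31Q/- library (adjusted p = 0.0854 and 0.109). The count of 2 was 5 without the first Pax5+/+ library, 4 without the second Pax5-/- library and 1, Bcl7a, without either Pax5R31Q/- library. Of the 24 BAF genes tested, limma called 1 in Pax5R31Q/- cells, Bcl7a. Tle4, the Groucho corepressor that binds Pax5, was at 57.3 to 64.5 TPM in the 6 libraries labelled pro-B and at 48.8 and 54.8 TPM in Pax5-/- cells, with no call.

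In Pax5-/- against Pax5+/+ cells 20 of the 47 genes were called lower and 1, Smarca2, higher, where 19.7% and 16.2% of all genes tested were, with a median log2 difference of -0.41 beside -0.11 over all genes. Of the 24 BAF genes 13 fell and 1 rose. These include the polybromo subunits Pbrm1, Arid2 and Brd7, the core subunits Smarcc2, Smarcd1 and Actl6a, and Bicra (GLTSCR1) and Brd9, which belong to the noncanonical complex. Bicra fell from 132 and 194 TPM in Pax5+/+ to 41.2 and 48.2 TPM in Pax5-/- cells, a log2 difference of -1.82 ± 0.21 (SE, adjusted p = 0.000519 from limma). In Pax5R31Q/- cells it was at 107 and 81.3 TPM, with a log2 difference of -0.78 and an adjusted p = 0.0948 from limma. It was called with limma-voom (adjusted p = 0.0351) and without the first Pax5+/+ library (adjusted p = 0.0484), and over the fits without 1 library it ranged from -1.05 to -0.50, with adjusted p = 0.0484 to 0.494. Of 11 PRC2 genes, Ezh2, Suz12 and Phf19 fell, and of 6 Groucho genes Aes, Tle3 and Tle6. Tle6 went from 8.81 and 11.7 TPM to 3.95 and 2.62 TPM, a log2 difference of -1.40 (adjusted p = 0.00792 from limma, 0.058 without the second Pax5+/+ library). Of 6 NCoR and SMRT genes only Gps2 was called, at -0.72 (adjusted p = 0.0244). The count of 21 moved with the libraries in the fit. It was 7 with only the 2 genotypes in the fit, 9 without the second Pax5+/+ library, 11 without the first Pax5-/- library, which had the high myeloid sum, 12 without either Pax5R31Q/- library and 13 without either Pax5+/- library, and 24 without the second Pax5-/- library, while at least 4 of the 9 genes were called in each of these fits.

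**Figure D5:**
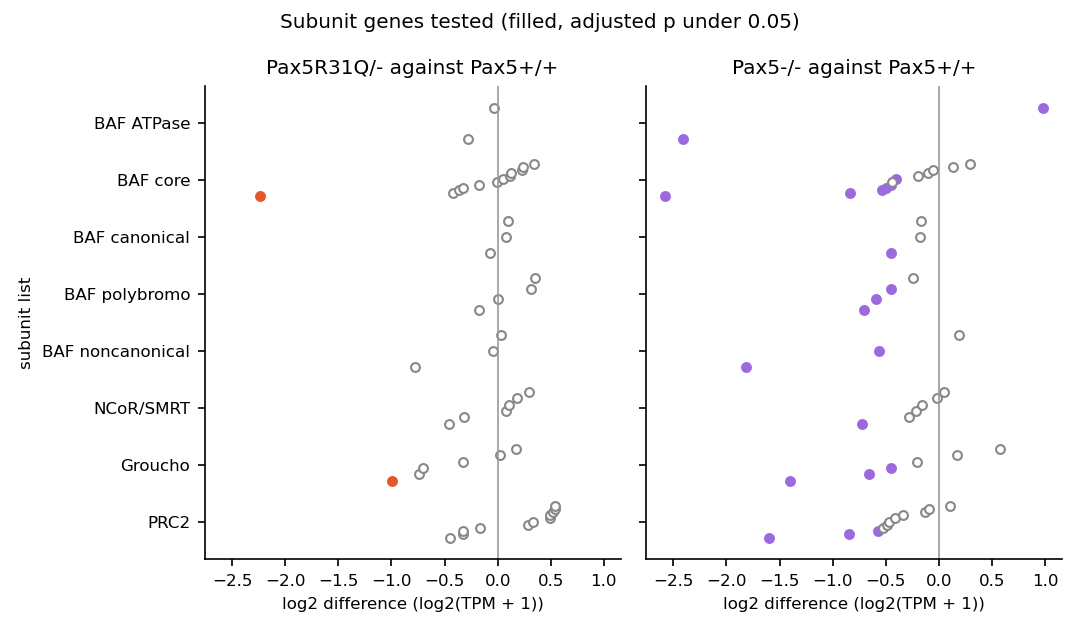
Log2 differences from Pax5+/+ (horizontal axes, log2(TPM + 1) scale) of the 47 subunit genes tested, 1 point per gene, by list, for Pax5R31Q/- (left) and Pax5-/- (right). Filled points have an adjusted p under 0.05 in limma. Left, 2 points are filled, Bcl7a at -2.24 and Aes at -0.99; right, 21 are filled, 20 of them below 0.

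In Pax5R31Q/- against Pax5-/- cells 18 of the 47 genes were called higher and 3 lower (Aes, Smarca2 and Tle2), where 19.9% and 14.7% of all genes tested were. The 18 include the PRC2 genes Ezh2, Eed, Suz12, Mtf2, Rbbp4 and Rbbp7. Eed, which binds the methylated histone, was at 114 and 117 TPM in Pax5R31Q/- and at 39.5 and 74.2 TPM in Pax5-/- cells, a log2 difference of 1.08 (adjusted p = 0.0179 from limma). Suz12, a scaffold of PRC2, differed by 1.18 (adjusted p = 0.0158). The 21 calls became 3 without the first and 7 without the second Pax5R31Q/- library, and 13 without the first Pax5-/- library. Smarca4, Smarca2 and Ezh2 were called in all 3 of these fits.

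Both peak lists held a peak at a start site of each of the 9 genes, though with different widths, such as 316 and 833 bp at Smarcb1 and 914 and 1513 bp at Ezh2. A Pax5+/+ peak lay no farther than 1 kb from a TSS of every gene of the 9, and 0 of 9 lost it, that is, each was met by a Pax5R31Q/- peak. Of 12894 tested genes that matched the annotation 66.0% had such a peak, and 3.85% of those had none in the Pax5R31Q/- list. Within 10 kb the 9 genes had 36 Pax5+/+ peaks, of which 28 (77.8%, Wilson 95% interval 61.9% to 88.3%, counting error only) were common. The share over the peaks at all tested genes was 69.1%, within this interval, and 37.5% over the whole list. The 24-base sequence most frequent in unique peaks lay in 32.1% of all Pax5+/+ peaks and in 0 of these 36, and without such peaks the share at tested genes was 73.1%. All 13 peaks within 1 kb of a TSS were common, and 15 of the 23 farther away. Common peaks were 294 to 1167 bp wide (median 562) and unique ones 238 to 562 bp. The 8 unique peaks were at Bcl7a (3), Smarca4 (3), Smarca2 (1) and Ezh2 (1), and the other 5 genes had none. With 50 kb on either side of the genes, 44 of 63 peaks were common. Unique peaks then lay around Bcl7a (8 of 13 peaks), Smarca4 (4 of 11), Arid1a (2), Bcl7c (1) and Smarcb1 (1), besides Smarca2 and Ezh2. Several of the unique peaks around Bcl7a fall within its neighbours Wdr66 and Mlxip. Over the whole Pax5+/+ list 62.5% of peaks were unique, and the share within 50 kb of all tested genes was not computed.

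The 5 genes whose log2(TPM + 1) followed Bcl7a most closely over the 8 libraries, of 10172 genes with a mean of at least 5 TPM, were Uchl1 (r = 0.997), Pik3ap1 (0.997), Gfi1 (0.995), Ust (0.992) and Xrcc1 (0.99). The points share genotypes in pairs, and these correlations are given as a description. Uchl1, a ubiquitin hydrolase, was at 128 and 172 TPM in Pax5+/+, at 99.2 and 81.2 TPM in Pax5+/-, at 15.2 and 14.9 TPM in Pax5R31Q/- and at a mean of 11.4 ± 0.843 TPM (SD, n = 2) in Pax5-/- cells. Pik3ap1 (BCAP), an adaptor that links B cell receptors to PI3 kinase, was at 471 and 497 TPM in Pax5+/+ and at 143 and 115 TPM in Pax5R31Q/- cells. Mean levels in Pax5R31Q/- cells were 10.1% of those in Pax5+/+ cells for Uchl1, 26.6% for Pik3ap1, 39.7% for the zinc finger repressor Gfi1, 33.9% for the sulfotransferase Ust and 55.0% for Xrcc1, a scaffold of DNA single-strand break repair. Bcl7a, at 21.0%, lay between Uchl1 and Pik3ap1. The 5 genes were picked for following Bcl7a in these same libraries, so their low Pax5R31Q/- levels come with the choice.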

How the data were processed

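RNA-seq (8 libraries) and Pax5 ChIP-seq peaks (2 libraries) were grouped by genotype from the labels. The authors aligned reads (STAR 2.4.2 for RNA), counted reads on RefSeq genes and deposited TPM values. Per the file headers and the study's methods, the deposited peak lists were called with MACS per library and hold positions with a score of 0 throughout, so peak height, depth and input were not analysed. TPM was compared with limma 3.58.1 (R 4.3.3) on log2(TPM + 1), eBayes with a trend, 4 genotypes in 1 fit, genes of at least 1 TPM in a library, Benjamini-Hochberg over all genes tested, calls at an adjusted p under 0.05. The script was tested on simulated data. Peaks were assigned to genes within 10 kb and called common when they shared 1 bp or more (Python 3.11.15, pysam 0.24.0). Repeat-masked bases and coordinates follow RefSeq GRCm38. Named genes are the 9, subunit genes called with over 2-fold difference from Pax5+/+, the 5 genes most like Bcl7a and markers. Aes, Ezh1, Tle4 and other subunits, and Mlxip, a neighbour of Bcl7a, were added after their values were seen. The genes, lists and tests were chosen with earlier results of these data known. Marker levels of other cell types were summed per library, and nothing was corrected for them.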

Additional observations from a re-analysis of the deposited data

How the results depend on the processing

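Other pseudocounts, filters, scalings, the variance trend, the 2 genotypes alone, limma-voom on recovered reads and leaving out each library were tried. Of the 9 genes, calls stayed at 1 in Pax5R31Q/- and 0 in Pax5+/- and at 4 to 5 in Pax5-/- cells against Pax5+/+. Leaving out 1 library gave 0 to 1 of the 9 in Pax5R31Q/- against Pax5+/- and 3 to 5 in Pax5R31Q/- against Pax5-/- cells, and of the 47 subunit genes 1 to 5 in Pax5R31Q/- and 9 to 24 in Pax5-/- against Pax5+/+ cells, 0 to 1 in Pax5R31Q/- against Pax5+/- and 3 to 24 against Pax5-/- cells. With only the 2 genotypes compared, these 47 gave 7 calls in Pax5-/- against Pax5+/+ and 3 in Pax5R31Q/- against Pax5+/- cells, a fit with fewer samples. Differences near 0 changed sign when 1 library was left out: Smarca4 in Pax5+/- against Pax5+/+ cells ranged from -0.21 to 0.03, and Smarca2 from -0.17 to 0.11 in Pax5R31Q/- and from -0.11 to 0.18 in Pax5+/- against Pax5+/+ cells, and from -0.16 to 0.03 in Pax5R31Q/- against Pax5+/- cells. Smarcb1 in Pax5-/- cells was 0 with quantile scaling and with limma-voom. With 50 kb flanks there were 63 Pax5+/+ peaks, 44 of them common. The cause was not tested. No paired analysis was possible because the labels carry no replicate numbers. With 2 libraries per genotype, small differences may have been missed.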
